A study of Mus musculus with 15 samples.

Results

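H3K27ac regions found in L-EPSCs and in neither ESCs nor D-EPSCs numbered 1951 of 70360 (2.77%). They were chosen by their measured H3K27ac peaks: overlapping or touching peaks of the 3 H3K27ac lists were merged into union regions, and a region was kept when it held a peak of L-EPSCs and no peak of ESCs or D-EPSCs. The comparison classes were made in the same way, with 4243 regions of D-EPSCs only, 37735 of ESCs only, 1656 of both EPSCs, 2860 of ESCs and L-EPSCs, 6943 of ESCs and D-EPSCs, and 14972 of all 3 states. Because the acetylation itself made the classes, its presence or absence is described and not tested. H3K4me1, genome position and sequence played no part in the choice.

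The study set mouse ESCs (embryonic stem cells of line J1) beside EPSCs (expanded potential stem cells) grown in either of a pair of published media, and all were labelled as strain 129SV. ESCs grew in a serum medium with LIF and 2i, the GSK3 inhibitor CHIR99021 and the MEK inhibitor PD0325901. D-EPSCs grew in an N2B27 medium with LIF, CHIR99021, dimethindene maleate and minocycline hydrochloride. L-EPSCs grew in a medium with serum replacement, LIF, CHIR99021 and PD0325901, to which were added the Src family inhibitor A-419259, the tankyrase inhibitor XAV939, JNK inhibitor VIII and the p38 inhibitor SB203580. LIF and CHIR99021 were common to all 3 states, and the labels name no further line per state. ESCs and L-EPSCs could be kept on fibroblast feeders or gelatin, but per the study's methods both EPSCs had been passaged without feeders before ChIP-seq. ChIP-seq of each mark was done in 2 samples a state with 1 input, but a single list of peaks was analysed for each mark in each state. No difference between states therefore has a replicate check or a test. Intervals given with shares are 95% Wilson intervals, which cover counting error over regions and not the spread between samples.

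H3K27ac, acetylation of lysine 27 on histone H3, is laid down by the coactivators p300 and CBP and marks promoters and enhancers in use. H3K4me1, a single methyl group on lysine 4, is written by the enzymes MLL3 and MLL4 and covers enhancers whether they are in use or poised. A region with H3K4me1 and no H3K27ac in a given state is usually read as a primed enhancer, so the H3K4me1 of the other states shows which of the L-EPSC regions were marked there.

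The H3K27ac list of L-EPSCs was the shortest of the 3, with 26966 peaks over 34.3 Mb against 64342 over 107.4 Mb in ESCs and 32782 over 44.4 Mb in D-EPSCs. The H3K4me1 lists were closer in length, between 102751 peaks (D-EPSCs) and 107222 (ESCs), and that of L-EPSCs held 105306. Read depth is unknown from peak positions and its part in these lengths was not tested. All 5 markers of pluripotent cells (Pou5f1, Sox2, Nanog, Zfp42 and Dppa5a) had an H3K27ac peak within 1 kb of the start site in each state. Of 16 markers of fibroblasts, 2 had one in each state, and no fibroblast marker had an L-EPSC-only region within 10 kb.

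The sequences below are the middle 300 bp of the first printable region of each named kind, read from the mm9 genome on the plus strand. The windows of Prmt8 and Stra8 were added because the regions over their start sites are described below. Windows in exons or made mostly of repeated sequence were passed over. A window named by a start site is therefore the middle of a region over that site. It does not hold the annotated start site itself. Capitals mark matches, on either strand, to the 17 short motifs searched, and a match is a description of letters and not a bound site.
Widest isolated region, Ccdc33, chr9:57889368-57889667: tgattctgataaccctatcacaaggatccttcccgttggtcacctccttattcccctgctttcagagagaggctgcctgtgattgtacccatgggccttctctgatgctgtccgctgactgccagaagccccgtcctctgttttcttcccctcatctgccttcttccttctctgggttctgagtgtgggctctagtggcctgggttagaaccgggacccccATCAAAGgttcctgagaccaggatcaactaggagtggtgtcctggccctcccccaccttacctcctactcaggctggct
Widest printable start-site region, Islr2, chr9:58051622-58051921: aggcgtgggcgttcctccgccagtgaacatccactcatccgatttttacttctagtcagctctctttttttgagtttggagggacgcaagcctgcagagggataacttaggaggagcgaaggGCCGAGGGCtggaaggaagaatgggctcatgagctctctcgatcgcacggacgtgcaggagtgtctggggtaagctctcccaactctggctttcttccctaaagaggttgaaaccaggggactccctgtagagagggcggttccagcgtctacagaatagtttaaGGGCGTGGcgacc
Prmt8 start site, chr6:127719911-127720210: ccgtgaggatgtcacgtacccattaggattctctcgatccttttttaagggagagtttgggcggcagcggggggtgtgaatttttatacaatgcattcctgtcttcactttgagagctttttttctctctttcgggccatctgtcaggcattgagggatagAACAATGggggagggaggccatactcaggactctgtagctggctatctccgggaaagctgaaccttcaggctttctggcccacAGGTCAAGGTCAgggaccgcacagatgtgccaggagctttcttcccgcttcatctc
H3K4me1 in L-EPSCs only, chr15:87725402-87725701: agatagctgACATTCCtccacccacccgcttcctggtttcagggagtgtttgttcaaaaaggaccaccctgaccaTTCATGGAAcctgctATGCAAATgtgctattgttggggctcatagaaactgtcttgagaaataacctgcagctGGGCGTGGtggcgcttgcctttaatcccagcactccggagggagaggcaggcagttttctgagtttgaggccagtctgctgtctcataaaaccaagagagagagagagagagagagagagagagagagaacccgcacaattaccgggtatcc
No H3K4me1 in any state, chr8:4702326-4702625: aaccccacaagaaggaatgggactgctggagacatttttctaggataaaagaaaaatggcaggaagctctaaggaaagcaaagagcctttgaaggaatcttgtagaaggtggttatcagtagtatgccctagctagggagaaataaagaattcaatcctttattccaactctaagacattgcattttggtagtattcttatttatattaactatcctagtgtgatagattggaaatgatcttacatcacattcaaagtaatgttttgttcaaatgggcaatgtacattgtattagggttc
Stra8 start site, chr6:34870261-34870560: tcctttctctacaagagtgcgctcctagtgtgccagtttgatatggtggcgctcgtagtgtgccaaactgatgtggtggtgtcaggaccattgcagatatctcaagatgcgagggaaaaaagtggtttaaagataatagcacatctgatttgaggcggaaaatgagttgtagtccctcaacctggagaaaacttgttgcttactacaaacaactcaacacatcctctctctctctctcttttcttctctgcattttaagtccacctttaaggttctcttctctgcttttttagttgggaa
The Ccdc33 window held 1 match, to the TCF and LEF motif ATCAAAG. The Islr2 window held matches to the TFAP2 motif GCCNNNGGC and the KLF motif GGGNGTGG. The window with H3K4me1 in L-EPSCs only held matches to TEAD (ACATTCC), STAT (TTCNNNGAA), the POU octamer (ATTTGCAT) and KLF. The Prmt8 window held a SOX match (CATTGTT on the other strand) and a pair of nuclear receptor motifs (AGGTCA) directly after one another, the second of which lies inside a match to TCAAGGTCA, the Esrrb and Nr5a2 motif. The window of the Stra8 region, which lay inside the gene just past its start site, held none of the letters searched. Nor did that of the region without H3K4me1.

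The regions were mostly narrow peaks. Each consisted of 1 L-EPSC peak, and together they held 7.24% of the L-EPSC H3K27ac peaks and 1.09 Mb. Their width was 419 bp at the median (25th percentile 268 bp, 75th percentile 656 bp), ranged from 188 to 5750 bp, and was below 300 bp for 625 of them. The median of all L-EPSC H3K27ac peaks was 744 bp. At least 1 kb was reached by 203 regions, 46 of which reached 2 kb. Median widths were 460 bp for D-EPSC-only, 649 bp for ESC-only and 2806.5 bp for all-state regions, so the regions were the narrowest of these classes.

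Acetylation in the other states was often nearby. The nearest H3K27ac peak of ESCs or D-EPSCs lay 3073 bp away at the median, within 1 kb for 564 regions (28.9%), within 10 kb for 1363 (69.9%) and beyond 50 kb for 213 (10.9%). By state, the median distance was 4308 bp to an ESC peak and 8183 bp to a D-EPSC peak, and the ESC list was the longer one. At the edge of the rule, the regions just inside had gaps of 1 bp (chr4:125175438-125175773, an intron of the glutamate receptor gene Grik3), 1 bp (an intron of Zbtb7c on chromosome 18) and 2 bp (chr13:4167346-4167703, 17446 bp from the start site of Akr1c18). The L-EPSC peaks just outside overlapped a peak of ESCs or D-EPSCs by 2 bp (chr5:75940649-75941435), 2 bp (on chromosome 18) and 3 bp (chr2:26507245-26507496). A border of this kind separates near neighbours, and 86 regions lay within 100 bp of a peak of ESCs or D-EPSCs.

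**Figure D1:**
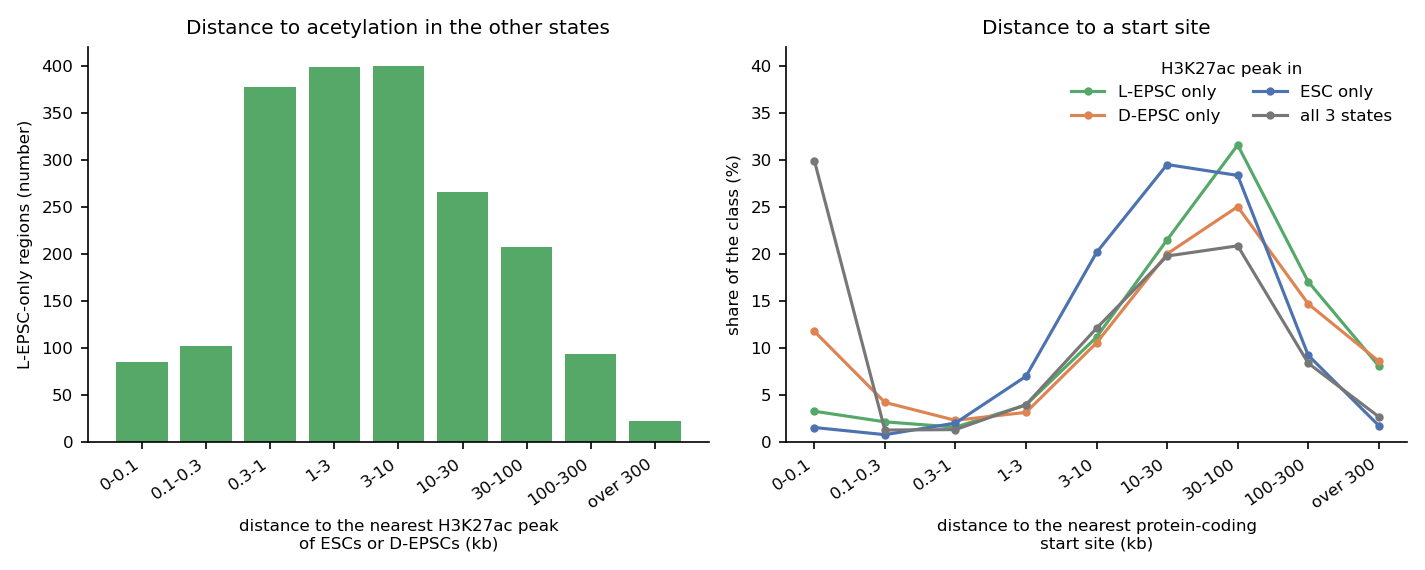
Left, the number of L-EPSC-only H3K27ac regions (y axis) in bins of distance in kb to the nearest H3K27ac peak of ESCs or D-EPSCs (x axis); the bins from 0.3 to 10 kb hold the most, and 22 regions lie over 300 kb away. Right, the share in percent of 4 classes (lines) in bins of distance in kb to the nearest protein-coding start site; L-EPSC-only regions have their maximum at 30 to 100 kb, and all-state regions in the bin under 0.1 kb.

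Most of the regions carried H3K4me1 in L-EPSCs, and roughly equal numbers had and lacked it in each of the other states. H3K4me1 overlapped 1519 of 1951 regions in L-EPSCs (77.9%, 95% interval 76.0 to 79.6), 1013 in D-EPSCs (51.9%, 49.7 to 54.1) and 974 in ESCs (49.9%, 47.7 to 52.1). Over all 70360 union regions the shares were 72.3% in L-EPSCs, 73.1% in D-EPSCs and 79.6% in ESCs. The L-EPSC-only regions were thus above the level of all regions in L-EPSCs and below it in both other states. They were below the 19488 regions acetylated in L-EPSCs and another state, which had 92.9% in L-EPSCs, 89.3% in D-EPSCs and 83.2% in ESCs. Within the L-EPSC-only regions, the share in L-EPSCs exceeded that in ESCs by 27.9 percentage points and that in D-EPSCs by 25.9. Where the mark was present it usually covered the whole region: 1148 regions lay wholly inside L-EPSC H3K4me1, 603 inside that of D-EPSCs and 583 inside that of ESCs.

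D-EPSC-only regions, made by the same rule for the other medium, had H3K4me1 in 69.6% in D-EPSCs, 65.5% in L-EPSCs and 50.0% in ESCs. There the state that made the class led the other EPSC state by 4.08 percentage points. ESC-only regions had 82.2% in ESCs, 60.9% in L-EPSCs and 64.2% in D-EPSCs. In all 3 single-state classes H3K4me1 was thus most frequent in the acetylated state. These leads are differences between lists without a replicate check.

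Split by the combination of states, 790 regions (40.5%, 38.3 to 42.7) carried H3K4me1 in all 3 states, 384 (19.7%) in L-EPSCs only, 381 (19.5%, 17.8 to 21.3) in none, 199 (10.2%) in both EPSCs and 146 (7.48%) in ESCs and L-EPSCs. The other 51 regions had it in ESCs only (27), D-EPSCs only (13) or both of these (11). H3K4me1 in L-EPSCs only was found at 2.58% of all union regions and 5.40% of D-EPSC-only regions. Regions without H3K4me1 in any state made up 12.4% of all union regions and 14.5% of ESC-only regions. They made up 23.7% of D-EPSC-only regions and 20.6% of those acetylated in both EPSCs. Under 300 bp this share was 26.4% in L-EPSC-only regions and 26.4% in all union regions. From 300 bp to 1 kb it was 18.2% and 18.8%, and at 1 kb and over 5.91% and 3.36%.

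The combinations differed in width and place. Regions with H3K4me1 in all 3 states had a median width of 469 bp, lay in a gene body in 50.4% and had the nearest acetylation of the other states 2364 bp away. Regions with H3K4me1 in L-EPSCs only were of similar width (median 440.5 bp), but lay in a gene body in 28.6% and had the nearest such peak 4949 bp away. Regions without the mark were narrower (344 bp). Those with it in both EPSCs were at a start site in 15.1%, against 6.08% of those with it in all 3 states.

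Width and isolation moved with H3K4me1 as well. Among regions under 300 bp, 71.2% had H3K4me1 in L-EPSCs and 42.7% in ESCs, and among those of 1 kb and over 93.1% and 61.6%. Over union regions of 1 kb and over, the shares were 88.8% in L-EPSCs and 92.0% in ESCs, so wide L-EPSC-only regions had the mark in ESCs less often than wide regions as a whole. With acetylation of another state within 1 kb, 60.6% of the L-EPSC-only regions had ESC H3K4me1, and with none within 10 kb, 42.3% (interval 38.4 to 46.4) had it. The share with L-EPSC H3K4me1 was 76.2% and 81.6% in the same groups.

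**Figure D2:**
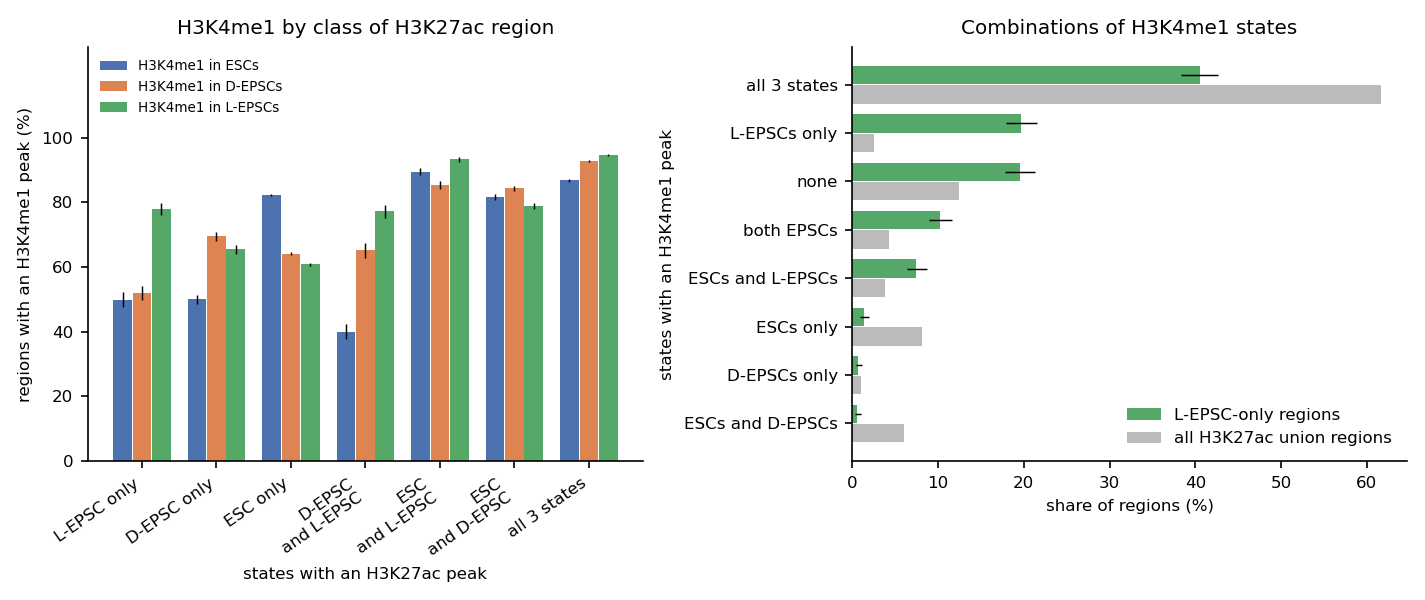
Left, the share of regions in percent with an H3K4me1 peak in ESCs, D-EPSCs and L-EPSCs (bars) for the 7 classes of H3K27ac region, with 95% Wilson intervals; in L-EPSC-only regions the bar of L-EPSCs stands at 77.9% and the other bars near 50%. Right, the share of L-EPSC-only regions (with intervals) and of all union regions for each combination of states with H3K4me1; H3K4me1 in L-EPSCs only makes up 19.7% and 2.58%.

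Fewer of the regions than of all union regions lay at promoters or in genes. A protein-coding start site lay within 1 kb of 134 regions (6.87%, 5.83 to 8.08), against 12.9% of all union regions, 18.2% of D-EPSC-only, 4.21% of ESC-only and 39.7% of regions acetylated in both EPSCs. This share moved with how the lists were cut. With the widest peaks kept to equal number it was 12.7%, and to equal covered bases 21.3%. With peaks of at least 500 bp it was 11.4%, and with the widest 50% of the L-EPSC list 6.43%, inside the interval. Length and peak width changed together in these cuts, and the part of each was not tested. A gene body was overlapped by 809 regions (41.5%, 39.3 to 43.7), against 62.2% of all union regions, and the other 6 classes ranged from 52.3% to 66.3%. The median distance to a start site was 39286 bp, against 27962 bp for D-EPSC-only, 20588 bp for ESC-only and 11081.5 bp for all-state regions. A total of 489 regions (25.1%) were over 100 kb from any start site, as were 12.8% of all union regions. The median GC content was 48.8%, against 47.5% over all regions and 52.3% in regions of both EPSCs, the highest of the 7 classes.

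By chromosome, the share of L-EPSC H3K27ac peaks that were L-EPSC-only ran from 4.88% on chromosome 11 (102 of 2089, interval 4.04 to 5.89) to 10.4% on chromosome 6 (158 of 1524, 8.94 to 12.0). Chromosome 8 held the most regions, 169. Another L-EPSC H3K27ac peak lay within 1 kb of 461 regions (23.6%), and the nearest was 3801 bp away at the median.

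The widest regions with no acetylation of ESCs or D-EPSCs within 10 kb are the clearest separate sites. The widest of all was 5750 bp long at chr9:57886643-57892392, inside Ccdc33, a gene for a coiled-coil protein, and overlapped an exon of it. The nearest start site, 19203 bp away, was that of Stra6, the cell-surface receptor that takes up retinol. ESC acetylation was 26234 bp away and D-EPSC acetylation 29806 bp away, yet H3K4me1 covered all 5750 bp of the region in L-EPSCs, 5411 bp in ESCs and 4233 bp in D-EPSCs. The fifth, 3796 bp at chr1:122161306-122165101, overlapped exon and UTR sequence of Steap3, a ferrireductase of iron uptake, 4181 bp from its start site, 107046 bp from ESC and 141974 bp from D-EPSC acetylation. The sixth, 3677 bp at chr19:58509994-58513670, lay in an intron of Gfra1, the GDNF co-receptor of spermatogonial stem cells, with H3K4me1 in all 3 states.

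Other isolated regions had no H3K4me1 in at least 1 other state. The third, 4022 bp at chr15:87723541-87727562, was intergenic, 348637 bp from the nearest start site (Fam19a5), and was covered whole by H3K4me1 in L-EPSCs and not at all in the other states. The fourth, 3873 bp at chr3:26504953-26508825, lay 27717 bp from the start site of Spata16, a spermatogenesis gene, with H3K4me1 in ESCs and L-EPSCs and none in D-EPSCs. The eighth, 2888 bp at chr8:48101576-48104463, lay in an intron of Enpp6. The second (4475 bp, chr12:71587762-71592236, 33680 bp from the start site of Tmx1) and the seventh (3030 bp, chr10:43559466-43562495, 18429 bp from that of Gm9034) had H3K4me1 in L-EPSCs only, and their middle windows were made of repeated sequence in 100% and 57.8% of their 24-mers.

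The third region in width with H3K4me1 in L-EPSCs only was 3626 bp long in an intron of Rnf125, a ubiquitin ligase gene on chromosome 18, with ESC acetylation 600 bp and D-EPSC acetylation 594 bp away. The widest regions without H3K4me1 in any state were less wide, 1571 bp (chr8:4701691-4703261), 1527 bp (chr8:82309041-82310567) and 1445 bp (chr8:66830749-66832193), all intergenic and 23326 to 145959 bp from a start site. All 3 were on chromosome 8 and had acetylation of ESCs or D-EPSCs between 1907 and 5408 bp away.

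At start sites the widest region covered that of Sox21, a SOXB2 transcription factor gene (3610 bp, chr14:118633103-118636712), with D-EPSC acetylation 2556 bp away. The other 4 were at Islr2 (2739 bp, chr9:58050403-58053141), a neuronal membrane protein gene that shares the region with 1600029O15Rik, at Ly6a (2306 bp, chr15:74826747-74829052), which encodes the surface antigen Sca-1, at Prmt8 (2289 bp, chr6:127718917-127721205), a neural arginine methyltransferase, and at Stra8 (2040 bp, chr6:34869391-34871430), the retinoic acid-induced gene of meiotic entry. All 5 overlapped exon and UTR sequence. H3K4me1 was present in all 3 states at Sox21, Islr2, Prmt8 and Stra8, and in ESCs and L-EPSCs at Ly6a. Prmt8 was the most isolated, with ESC acetylation 22508 bp and D-EPSC acetylation 57471 bp away. In all, 152 genes had a start site within 1 kb of a region.

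Enpp6 and Stox2, next to each other on chromosome 8, held the most regions within 10 kb of the gene body, 10 each with none in common. Enpp6 encodes a choline phosphodiesterase, and 7 of its regions stood in a row over 14817 bp of the gene (chr8:48101576-48116392), between 373 and 2888 bp wide, with no peak of ESCs or D-EPSCs in that span. All 10 were among 12 L-EPSC peaks within 10 kb of the gene. H3K4me1 was found in L-EPSCs only at 5 of the 10, in no state at 3, in both EPSCs at 1 and in ESCs and L-EPSCs at 1. At Stox2, a storkhead-box gene, the 10 regions were among 19 L-EPSC peaks, and 7 of the 10 carried H3K4me1 in all 3 states.

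Acad9, a mitochondrial complex I assembly gene, had 6 regions within 10 kb. They were 312 to 988 bp wide and had H3K4me1 in L-EPSCs only (3) or in no state (3). Another run was intergenic, 7 regions over 32603 bp (chr3:31330966-31363568), at least 121666 bp from the nearest start site, that of Slc7a14. It had 2 ESC peaks and 1 D-EPSC peak in the span, and 6 of its 7 regions had H3K4me1 in L-EPSCs only.

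**Figure D3:**
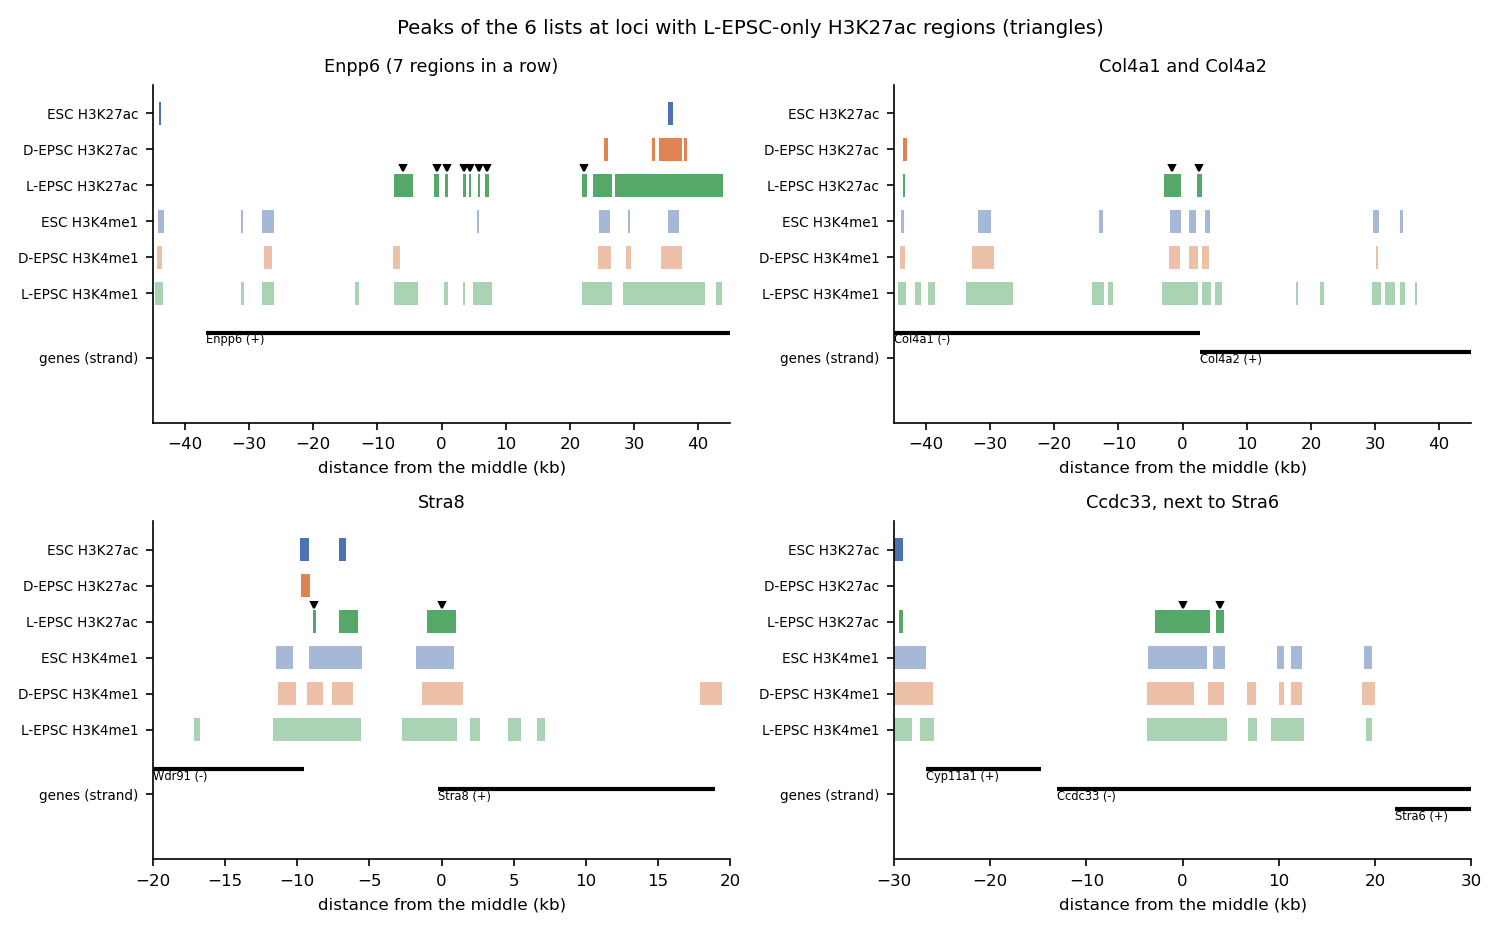
Peaks of the 6 lists (rows; H3K27ac above, H3K4me1 below in paler colour) and genes with their strand at 4 loci, against distance in kb from the middle; triangles mark L-EPSC-only H3K27ac regions. The ESC and D-EPSC acetylation rows are empty around the 7 regions in a row at Enpp6 and both at Col4a1, while H3K4me1 of ESCs and D-EPSCs lies under the wider regions at Col4a1, Stra8 and Ccdc33.

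Genes of 13 lists chosen for the study's media and cell states were then searched for regions within 10 kb. Over all 22350 protein-coding genes, 1047 (4.68%) had an L-EPSC-only region within that distance and 2942 (13.2%) a D-EPSC-only region. Of 195 list genes found in the annotation, 16 (8.21%) had an L-EPSC-only region. The counts per list are small, and no list was tested.

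Genes of primitive endoderm, the lineage that lines the blastocyst cavity and makes basement membrane, had L-EPSC-only regions at 4 of 14 (28.6%) and D-EPSC-only regions at 0 of 14. Among the 4 were Col4a1, Col4a2 and Sparc, and the first pair share their regions. Col4a1 and Col4a2 encode the chains of type IV collagen and are transcribed in opposite directions from a common promoter. A region of 776 bp (chr8:11312341-11313116) covered both start sites, and one of 2765 bp (chr8:11307185-11309949) lay in the first part of Col4a1. ESC acetylation was 79538 bp and D-EPSC acetylation 40071 bp or more away from both. H3K4me1 of both EPSCs overlapped the edges of the 776 bp region but not the start sites, and that of ESCs lay on either side of the region. At the wider region H3K4me1 was present in all 3 states. Sparc, a matrix glycoprotein, had 1 of 604 bp lying 8033 bp upstream. No region lay within 10 kb of the lineage's factors Gata4, Gata6, Sox17 and Foxa2.

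Of 18 genes of the retinoic acid pathway, 2 had regions. Stra8 had a region of 199 bp at 8468 bp upstream besides the one over its start site. This narrow region lay 243 bp from ESC and 228 bp from D-EPSC acetylation. Dhrs3, the retinaldehyde reductase that limits retinoic acid synthesis, had 4, of 869, 833, 371 and 329 bp, from 109 to 15992 bp downstream of its start site (the first chr4:144482839-144483707), and all 4 within 5 kb of ESC acetylation. The receptors Rara, Rarb and Rarg, the enzymes of the Aldh1a and Cyp26 families and Stra6 itself had none within 10 kb. D-EPSC-only regions were found at 2 of the 18 as well.

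Pluripotency genes had L-EPSC-only regions at 2 of 22: Esrrb (319 bp, chr12:87773933-87774251, in an intron) and Nr5a2 (820 bp, chr1:138845052-138845871), orphan nuclear receptors of the naive network. The Nr5a2 region overlapped an exon, had H3K4me1 in L-EPSCs only and lay 431 bp from ESC acetylation. The Esrrb region had H3K4me1 in all 3 states and lay 7898 bp from D-EPSC acetylation. D-EPSC-only regions were found at 2 of the 22.

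Among genes of the pathways inhibited in the L-EPSC medium, Wnt pathway genes and tankyrases had L-EPSC-only regions at 3 of 21. Tnks, which encodes tankyrase 1, a target of XAV939, had 1 of 814 bp (chr8:36011286-36012099), 16645 bp into the gene. ESC acetylation lay 403 bp from it, and Tnks2 had no region. The repressor Tcf7l1 had 3 regions of 197 to 1619 bp, with ESC acetylation 511 to 1911 bp away. Znrf3, a ligase that removes Wnt receptors, had 1 of 222 bp, 345 bp upstream of the start site, with D-EPSC acetylation 338 bp away. Genes of the ERK pathway had L-EPSC-only regions at 2 of 21, the receptors Fgfr1 (1) and Fgfr2 (5). ESC acetylation lay 303 bp from that of Fgfr1 and 726 to 4291 bp from those of Fgfr2. The annotation gives Fgfr2 an unusually long span, so nearness to it says less. Src family kinases had L-EPSC-only regions at 1 of 9 (Fyn, 2 regions of 290 and 1083 bp, 93895 and 134320 bp into the gene). ESC acetylation lay 5268 and 118 bp from these. JNK, p38 and AP-1 genes had them at 1 of 18 (Fosb, 509 bp, 9425 bp upstream, 6830 bp from ESC acetylation). D-EPSC-only regions lay near 6 of 21, 6 of 21, 0 of 9 and 1 of 18 genes of these lists.

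Trophoblast genes had a region at 1 of 15, a 283 bp region 1306 bp into Tfap2c, an AP-2 factor. Formative and primed epiblast genes had none (0 of 18), while D-EPSC-only regions lay near 8 of these 18. LIF and STAT3 genes (0 of 11), DNA methylation enzymes (0 of 8), fibroblast markers (0 of 16) and the study's 2C genes (0 of 15 found) had none either, where D-EPSC-only regions lay near 2, 2, 1 and 0. No start site of the 2C genes found had a peak within 1 kb in any of the H3K27ac lists, which does not show that signal below the calling threshold was absent.

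**Figure D4:**
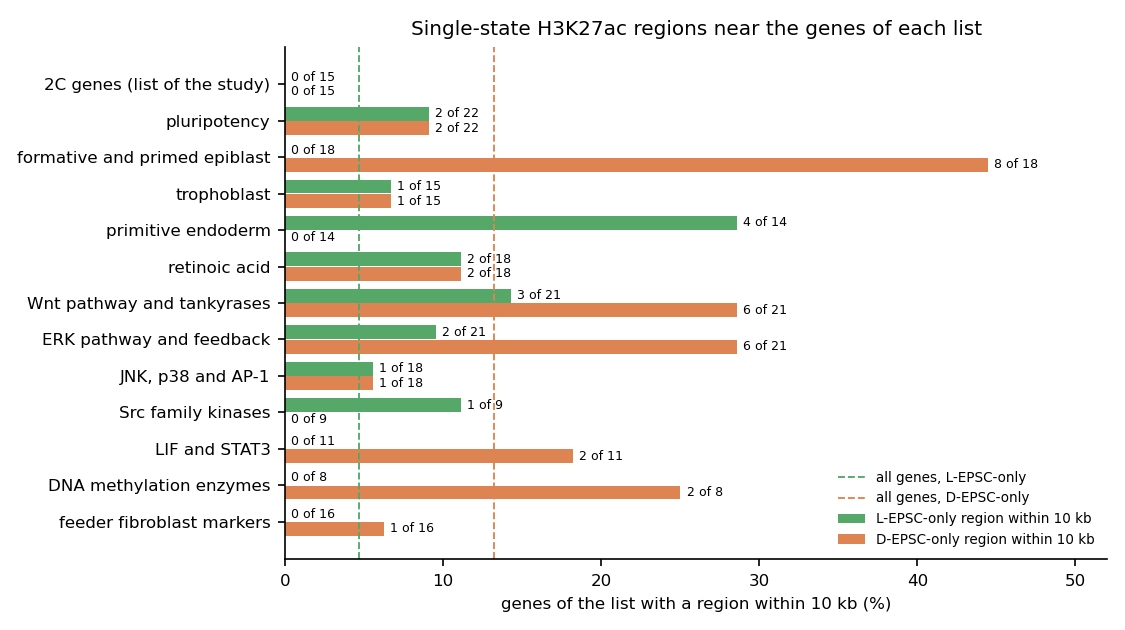
The share in percent of the genes found of each of 13 lists with an L-EPSC-only (green) or D-EPSC-only (orange) H3K27ac region within 10 kb, with the counts beside the bars; dashed lines give the same shares over all protein-coding genes, 4.68% and 13.2%. The primitive endoderm list reads 4 of 14 and 0 of 14, the formative and primed epiblast list 0 of 18 and 8 of 18.

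Short motifs were about as frequent in the regions as in all acetylated regions. Of the 17 searched, 16 had a share over all union regions inside the interval of the L-EPSC-only regions. The nuclear receptor motif AGGTCA was in 20.0% of the windows (18.3 to 21.9) against 20.3% of all, the AP-1 motif TGANTCA in 10.5% against 10.0%, the joint Esrrb and Nr5a2 motif TCAAGGTCA, which contains it, in 1.38% against 1.42%, and the POU octamer in 1.54% against 1.55%. The exception was the KLF motif GGGNGTGG, in 10.3% (9.03 to 11.7) against 12.6%, and D-EPSC-only regions had it in 10.1%. The TCF and LEF motif was in 4.15% against 4.40%, ETS (CCGGAAG) in 3.54% against 3.09%, SOX (CATTGTT) in 4.41% against 4.43%, and TFAP2 in 9.79% against 9.84%. The MYC E-box (CACGTG) was in 4.25% against 5.07%, Zfp281 (GGGGAGGGG) in 2.72% against 3.42%, GRHL (AACCNGTT) in 3.02% against 2.47%, and STAT in 9.53% against 9.08%. The letters AGATAAG, bound by GATA factors, were in 3.79% against 3.46%, the FOX motif TGTTTAC in 4.46% against 4.69%, the ZIC motif CCTGCTG in 10.6% against 10.3%, and TEAD in 4.00% against 4.29%.

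Repeated sequence was more frequent than over all regions. A window was called repeated when over 50% of its 24-mers occurred at least 10 times in the genome. This was so for 125 L-EPSC-only regions (6.41%, 5.40 to 7.58), against 3.26% of all union regions, 4.17% of D-EPSC-only and 7.25% of regions acetylated in both EPSCs. Within the L-EPSC-only regions it was 15.5% (12.2 to 19.5) of those without H3K4me1, 9.90% (7.29 to 13.3) of those with H3K4me1 in L-EPSCs only and 1.77% (1.06 to 2.95) of those with it in all 3 states. No filter on mapping quality is stated for these libraries, reads from repeated sequence cannot be placed with certainty, and the cells are 129SV while the genome is C57BL/6J. The part of these in the result was not tested.

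Much of the repeated sequence belonged to 1 family. Regions that shared at least 50 of their 24-mers were linked, which gave 17 families of 2 or more with 159 regions, the largest of 98 regions (5.02%) on all 20 chromosomes and the next of 19. The most widely shared 24-mer of the largest family, shown because it identifies the repeat, was in 43 of the 98 and had 6794 copies on chromosomes 1 to 19 and X.
Shared 24-mer: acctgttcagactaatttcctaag
Within the family's regions and 2 kb around them, successive copies were 212 bp apart (median, 25th and 75th percentile alike), so it is a tandem repeat. An open reading frame of at least 1000 codons lay within 8 kb of 38 of the 98 (38.8%) and of 25 of the 1853 other regions (1.35%). As background, mouse LINE-1 retrotransposons carry tandem promoter monomers ahead of a long open frame; no repeat annotation was used here and the family was not matched to one.

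The 98 regions were isolated and mostly without H3K4me1 in the other states, and often without it in L-EPSCs too. For 80 of them the nearest acetylation of ESCs or D-EPSCs was over 10 kb away, with a median of 33849 bp, and 1 was at a start site. H3K4me1 was found in no state at 50, in L-EPSCs only at 28, in all 3 states at 10, in both EPSCs at 9 and in ESCs and L-EPSCs at 1. Their median width was 338.5 bp and their median GC content 53.7%.

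To compare classes, the family's 24-mers were taken from its 55 regions on odd-numbered chromosomes and X. This kept the regions that gave the letters out of the count. It did not remove the choice of the family, which was the largest among L-EPSC-only regions of all chromosomes and may favour that class. Regions with at least 50 of these 24-mers were counted on even-numbered chromosomes. They made up 37 of 971 L-EPSC-only regions (3.81%, 2.78 to 5.21), 15 of 1935 D-EPSC-only (0.775%), 22 of 17151 ESC-only (0.128%, 0.0847 to 0.194) and 38 of 761 of both EPSCs (4.99%, 3.66 to 6.78). Among regions of ESCs and L-EPSCs they were 1.41%, of ESCs and D-EPSCs 0.413% and of all 3 states 1.68%. The family was therefore not confined to L-EPSC-only regions. The classes with L-EPSC acetylation had shares from 1.41% to 4.99% and those without it from 0.128% to 0.775%. With 24-mers held by at least 10 of the 55 regions, rather than 3, the shares fell to 1.54%, 0.517%, 0.0233% and 3.94% in the same order, and regions of ESCs and L-EPSCs (0.212%) were then below D-EPSC-only ones. With 24-mers held by at least 3, the family's regions had H3K4me1 most often in L-EPSCs in every class. It was in 32.4% of L-EPSC-only ones. Of D-EPSC-only ones, 26.7% had it in L-EPSCs and 6.67% in D-EPSCs. Of ESC-only ones, 40.9% had it in L-EPSCs and 4.55% in ESCs.

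**Figure D5:**
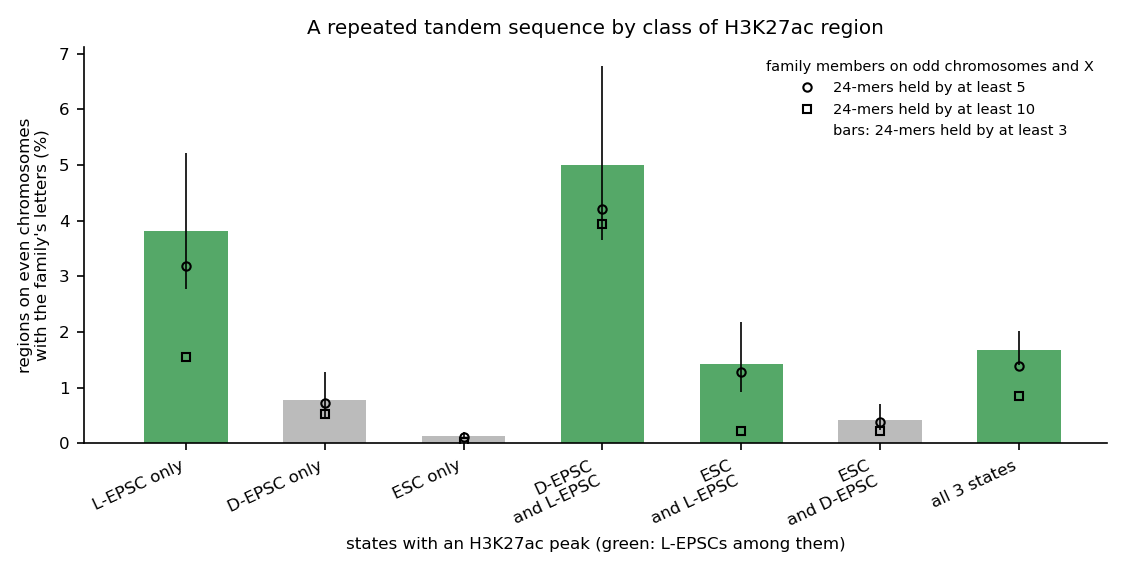
The share in percent of regions on even-numbered chromosomes that hold the letters of the largest repeat family (y axis) for the 7 classes of H3K27ac region (x axis), with 95% Wilson intervals; bars use 24-mers held by at least 3 family regions on odd chromosomes and X, circles at least 5 and squares at least 10. L-EPSC-only regions read 3.81% and regions of both EPSCs 4.99%, against 0.128% for ESC-only regions.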

How the data were processed

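ChIP-seq of H3K4me1 and H3K27ac was made by the authors in 2 samples per mark and state, with 1 input per state (15 samples). Per the labels and the study's methods, the authors trimmed reads (the submitters' notes name Trim Galore 0.6.3), aligned them to mm9 with Bowtie2 2.3.5, sorted them with SAMtools 1.10 and called broad peaks with MACS against input. The threshold, the treatment of replicates and any filter on mapping quality are not given in the sources used here, and a looser call or deeper library lengthens a list. The deposited files give 1 list per state and mark with peak positions and no score, so lists were compared by overlap of at least 1 bp, without a test.

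No peak passed the end of a chromosome of the NCBIM37 genome (mm9), and no peaks of a list overlapped. Peaks were on 20 chromosomes. The start of a gene was read from GENCODE M1 for 22350 protein-coding genes, and coordinates are 1-based. Of 196 list genes 195 were found, through synonyms and identifiers of the RefSeq gene table where the symbol had changed. Distances run from the edge of a region. Motifs were searched on both strands in the middle 300 bp.

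The regions and the gene lists were chosen with earlier results of these data known. Regions named were the 8 widest with no H3K27ac of ESCs or D-EPSCs within 10 kb, the 5 widest within 1 kb of a start site, the 3 widest with H3K4me1 in L-EPSCs only and the 3 widest without it, the 5 genes with most regions within 10 kb, the 3 runs of nearby regions with most members, those at the edge of the rule, and list genes with a region; some of these are not reported here. The 24-mer copies and families were added after seeing the data. Interval, class and 24-mer code was tested on simulated data. The cells are 129SV and the reference C57BL/6J. Python 3.11.15, numpy 2.4.6, numba 0.67.0, pyfaidx 0.9.0.4 and matplotlib 3.10.9 were used.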

Additional observations from a re-analysis of the deposited data

How the results depend on the processing

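Membership depends on the length of the lists. The 1951 regions became 4077 with lists of equal number and 11596 with lists of equal covered bases, both of which shorten the ESC and D-EPSC lists, and 1243 with peaks of at least 500 bp, 1247 with peaks joined over 1 kb, 588 with no acetylation of the other states within 10 kb and 373 with the widest 50% of the L-EPSC list. H3K4me1 in L-EPSCs led that in ESCs by 18.2 to 39.3 percentage points and that in D-EPSCs by 11.9 to 32.1 over all settings. Of 82 values, 50 moved beyond the interval of the reported share (or 1.5 times the number) and 32 did not.

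Shares are given in the order H3K4me1 in L-EPSCs, in D-EPSCs, in ESCs, no H3K4me1, start site, genes within 10 kb, leaving out those that did not move. With peaks of at least 500 bp they were 82.2%, 56.9%, 52.4%, 15.5%, 11.4% and 3.38%. With lists of equal covered bases they were 80.8%, 69.0%, 62.7%, 16.4%, 21.3% and 31.3%. With lists of equal number, D-EPSCs had 58.0%, ESCs 54.6%, start sites 12.7% and genes 10.99%. With the widest 50% of the L-EPSC list they were 90.1%, 61.9%, 57.1%, 9.38% and, for genes, 0.908%. With no other acetylation within 10 kb, L-EPSCs had 81.6%, D-EPSCs 49.5%, ESCs 42.3% and genes 1.19%; within 1 kb, ESCs had 45.6% and genes 3.28%. With peaks joined over 1 kb, ESCs had 46.8%, start sites 8.18% and genes 3.19%. H3K4me1 over at least 50% of a region gave 71.5%, 42.4%, 41.6% and 25.2%, and an H3K4me1 peak within 1 kb 87.7%, 66.7%, 65.6% and 10.97%. A window of 2500 bp put 9.69% at start sites. Overlap of the gene body gave 2.92% of genes and a margin of 50 kb 10.4%. Without regions over 50% repeated, an alternative chosen after seeing the data, D-EPSCs had 54.2%, ESCs 52.2% and no H3K4me1 17.6%. Leaving out the largest repeat family, also chosen then, moved no share beyond its interval.

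No paired analysis was possible because each state and mark has 1 list. Leaving out a replicate was not run for the same reason.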

Other observations

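The second repeat family among the L-EPSC-only regions, also formed after seeing the data, held 19 regions with a median of 127 genome copies per 24-mer. Of these, 7 had no H3K4me1, 6 had it in L-EPSCs only, 3 in all 3 states, 2 in both EPSCs and 1 in ESCs and L-EPSCs. No open reading frame of 1000 codons lay within 8 kb of any of them, and 6 had no acetylation of ESCs or D-EPSCs within 10 kb.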
